A study of Mus musculus with 8 samples.

Results

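The regions described here are the 554 sites of accessible chromatin that flank Pggt1b on mouse chromosome 18, of 79758 sites in the whole table. They were chosen by position alone: the midpoint of a site had to lie between 36000000 and 56000000 bp of chromosome 18 on build mm9. The 80 kb from 46380000 to 46460000 bp, around Pggt1b itself, were left out together with the 3 sites in them. Of the 554 flank sites, 520 passed the filter on low counts and were tested, and 34 did not. The rest of chromosome 18 held 2118 sites, of which 1990 were tested, and 75352 sites were tested in all.

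The assay was ATAC-seq, which uses a transposase to place sequencing adapters in open chromatin, on regulatory T (Treg) cells from spleen and lymph nodes. The 8 libraries formed 4 groups of 2: Pggt1b-deficient cTreg, Pggt1b-deficient eTreg, WT cTreg and WT eTreg cells. cTreg (central) cells are the resting and eTreg (effector) cells the activated form of Treg cells. All 4 groups were taken from mixed bone marrow chimeras, hosts in which marrow of more than 1 donor develops side by side. The labels give no strain, age, deletion method or number of hosts, nor whether replicates came from separate animals, so p-values measure only the spread between these libraries. Sites carry no gene names and the only gene table is of another build, so the cell type labels were not checked against marker genes.

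Pggt1b encodes the beta subunit of GGTase-I, which adds a geranylgeranyl lipid to small GTPases such as RHOA and RAC1 so that they can bind membranes. A targeted allele is inherited together with the DNA on either side of it, and DNA variants of the strain in which the allele was made can stay with it until recombination separates them. A variant at a regulatory site can change the binding of a transcription factor, or the alignment of reads to the reference genome, and may do so in more than 1 cell type that carries the allele. The comparison therefore asked whether genotype differences shared by cTreg and eTreg cells gather around Pggt1b more than on the rest of chromosome 18. In these libraries the loss of Pggt1b and any DNA linked to its allele go together and cannot be told apart.

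In the gene order of GRCm38.p6, from which no position was taken, the neighbours of Pggt1b on one side are Trim36, which encodes a ubiquitin ligase, and Kcnn2, which encodes a calcium-activated potassium channel. On the other side follow Ccdc112, Fem1c (a substrate receptor of a ubiquitin ligase), Ticam2 (an adaptor of Toll-like receptor 4), Tmed7, Eif1a, Cdo1 (cysteine dioxygenase), Atg12 (an autophagy conjugation protein) and Ap3s1 (a subunit of the AP-3 sorting complex). No site was assigned to a gene.

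Depth differed between groups. Pggt1b-deficient cTreg libraries totalled 8854687 and 7153991 counts, Pggt1b-deficient eTreg libraries 2255214 and 1664702, and the 4 WT libraries 11194290 to 14974253. The median count of a flank site was 23 to 29 in Pggt1b-deficient cTreg, 6 in both Pggt1b-deficient eTreg libraries and 36 to 51 in the WT libraries, and 13.7% and 16.8% of flank sites had no count in the Pggt1b-deficient eTreg libraries, against at most 3.25% in the other 6. The flank as a whole did not gain or lose signal by much: it held 21.1% to 22.0% of the chromosome 18 counts of the Pggt1b-deficient libraries and 20.9% to 21.1% of those of the WT libraries. In what follows a site is called at an adjusted p under 0.05 in edgeR's quasi-likelihood test, adjusted by Benjamini-Hochberg over all 75352 sites, with n = 2 libraries per group. CPM are counts relative to the TMM-scaled library size.

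Genotype differences shared by both subsets were slightly more frequent in the flank than on the rest of chromosome 18 or over all tested sites. All of those called in the flank lay within 5 Mb of Pggt1b. Of 520 flank sites, 9 were called in the same direction in cTreg and eTreg cells, 3 higher and 6 lower in Pggt1b-deficient cells, which is 1.73% of the flank. The same held for 22 of 1990 sites on the rest of chromosome 18 (1.11%) and for 1.19% of all tested sites, of which 0.24% were higher and 0.953% lower. In a fit limited to sites with a mean count of at least 20, the percentages were closer. They were 2.04% in the flank, 1.7% on the rest of chromosome 18 and 1.8% of all sites. By distance from the nearer edge of the left-out window, 5 of the 64 sites within 1 Mb were shared (7.81%), 4 of the 100 sites at 1 to 5 Mb (4.0%), and none of the 356 sites farther out. The farthest shared site was 4.27 Mb away. The 164 sites within 5 Mb made up 31.5% of the tested flank.

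**Figure D1:**
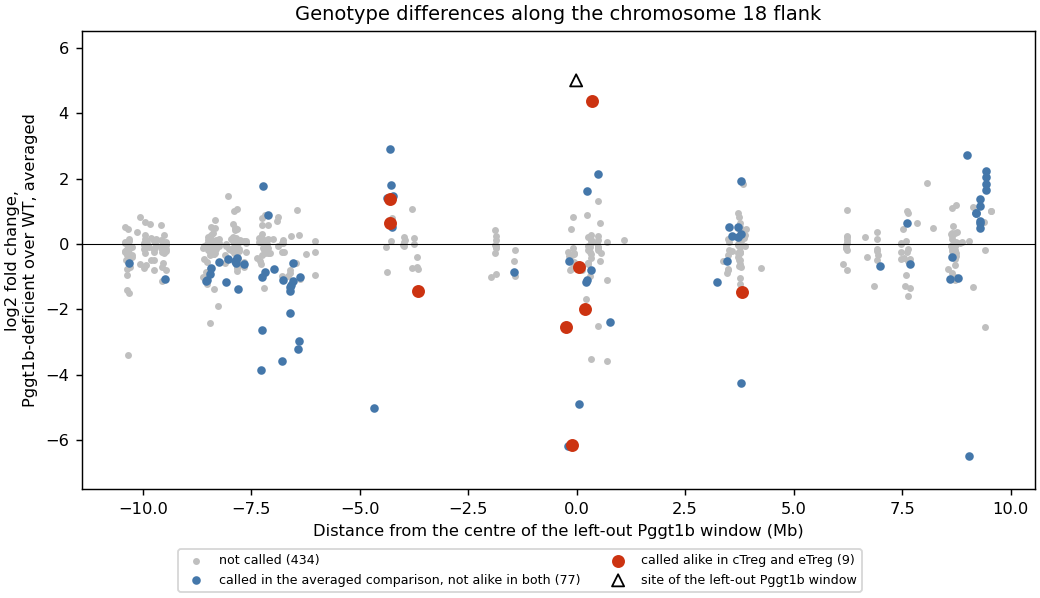
Log2 fold change of Pggt1b-deficient over WT cells, averaged over cTreg and eTreg, for the 520 tested flank sites (1 point each) against distance in Mb from the centre of the left-out window. The 9 sites called alike in both subsets (red) lie within 5 Mb of the window, while blue sites, called in the averaged comparison but not alike in both subsets, are spread over the whole flank.

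This concentration had counterparts elsewhere. The 1 Mb bin that holds the left-out window, 46 to 47 Mb, had 5 shared sites among 60 tested (8.33%). Of 1347 bins of 1 Mb with at least 20 tested sites, 33 had a percentage at least as high and 12 had at least as many shared sites, this bin included, whereas 874 had none. On the rest of chromosome 18, the 5 Mb from 61 to 66 Mb held 8 shared sites among 219 (3.65%), all lower in Pggt1b-deficient cells. Over windows of 20 Mb with at least 200 tested sites, the percentage of shared sites ran from 0.0% to 3.86%, and 33 of 132 windows reached the 1.73% of the flank. The percentage for single chromosomes other than 18 ran from 0.423% to 1.62%.

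The number of shared sites was small and rested in part on single libraries. It was 5 when either WT cTreg library, replicate 1 or 2, was left out, 4 when Pggt1b-deficient cTreg replicate 1 was, and between 6 and 11 without each of the other 5 libraries. In each of these 8 fits the flank percentage stayed above that of the rest of chromosome 18, by 0.423 to 1.07 percentage points. Leaving out Pggt1b-deficient cTreg replicate 2, or either Pggt1b-deficient eTreg library, brought in 2 shared sites beyond 5 Mb, as did halving the counts. At an unadjusted p under 0.05 in both subsets, 40 flank sites were shared, 9 within 1 Mb and 20 beyond 5 Mb. At an adjusted p under 0.05, the 5 shared sites within 1 Mb stayed 5 with DESeq2 size factors and became 4 with limma. They became 2 with the DESeq2 test, which gave an adjusted p in cTreg to only 214 flank sites. With counts thinned to the smallest library they became 0 of 28 tested.

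**Figure D2:**
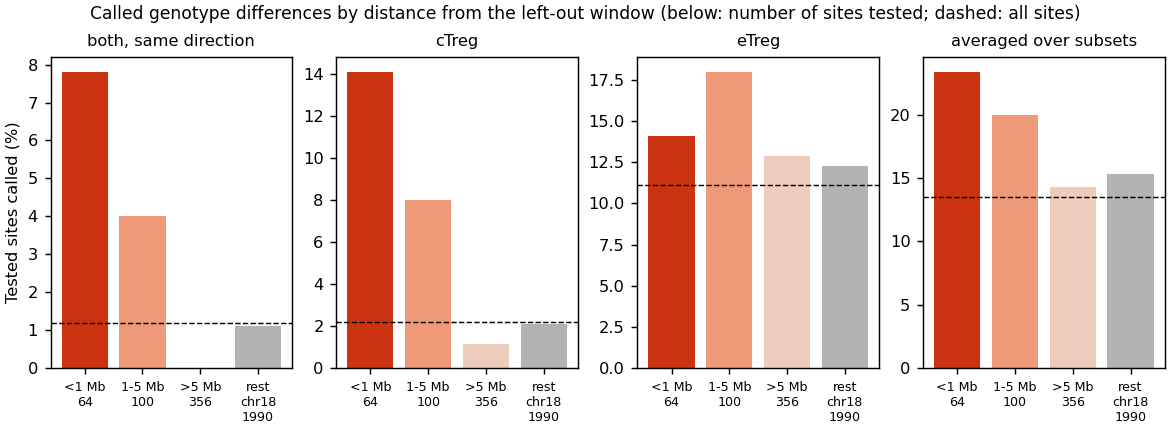
Percentage of tested sites called in 4 comparisons of Pggt1b-deficient with WT cells, for flank sites within 1 Mb, at 1 to 5 Mb and beyond 5 Mb of the left-out window and for the rest of chromosome 18; the dashed line is the percentage over all 75352 tested sites. Shared calls run 7.81%, 4.0% and 0.0% with distance and cTreg calls 14.1%, 8.0% and 1.12%, while eTreg calls are 14.1%, 18 of 100 sites and 12.9%.

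Within 1 Mb of Pggt1b, several short sites had counts in 1 genotype and few or none in the other. In eTreg cells the low depth of the Pggt1b-deficient libraries limits what such counts show. The 49 bp site chr18:46303222-46303271, 76.8 kb from the window, had 0 and 1 counts in Pggt1b-deficient cTreg libraries, against 40 and 32 in WT cTreg libraries. In Pggt1b-deficient eTreg libraries it had no count, against 14 and 34 in WT eTreg libraries. The groups did not overlap, but the depth of the Pggt1b-deficient eTreg libraries allows little more than a direction there. In cTreg cells the ratio was 46.5-fold lower (95% exact interval 4.69 to 48300), with an edgeR adjusted p of 0.000589. For eTreg cells the fall was at least 1.23-fold (edgeR adjusted p = 0.0405, range over alternatives 0.0384 to 0.186), a call lost under 11 of 16 alternatives. The cTreg call was lost without Pggt1b-deficient cTreg replicate 1 (edgeR adjusted p = 0.0519).

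An opposite pattern was seen at the 20 bp site chr18:46775410-46775430, 315.0 kb from the window on the other side. It had 9 and 19 counts in Pggt1b-deficient cTreg libraries, against 2 and 0 in WT cTreg libraries. In eTreg cells the counts were 4 and 4 in Pggt1b-deficient libraries, against 2 and 0 in WT libraries. All 4 Pggt1b-deficient libraries lay above all 4 WT libraries, at 1.01 to 2.62 CPM against 0.0 to 0.185 CPM. The ratio was 21.7-fold higher in cTreg (95% exact interval 3.3 to 917, edgeR adjusted p = 0.0255) and 26.1-fold higher in eTreg cells (2.58 to 1280, edgeR adjusted p = 0.023). With a mean of 5 counts per library, this site is among the weakest tested, and its calls depended on single libraries. The cTreg call was lost without WT cTreg replicate 1, WT cTreg replicate 2 or Pggt1b-deficient cTreg replicate 2 (edgeR adjusted p up to 0.388), and the eTreg call without WT eTreg replicate 2 or either Pggt1b-deficient eTreg library (up to 0.183).

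Another pair of sites near the window had few or no counts in Pggt1b-deficient libraries but were not called in both subsets. They are named here because of their values. chr18:46228634-46228667 had no count in any of the 4 Pggt1b-deficient libraries, against 20 and 11 in WT cTreg and 6 and 15 in WT eTreg libraries. It was at least 3.33-fold lower in Pggt1b-deficient cTreg cells, with an edgeR adjusted p of 0.0278 there and 0.24 in eTreg. In eTreg cells no fall was shown, since the floor of 6 counts gave a ratio of 1.86 to WT. chr18:46474016-46474054 had 0 and 2 counts in Pggt1b-deficient cTreg and none in Pggt1b-deficient eTreg libraries, against 15 and 5 in WT cTreg and 22 and 31 in WT eTreg libraries. Its edgeR adjusted p was 0.273 in cTreg, 0.0513 in eTreg and 0.00925 averaged over the subsets. The fall in eTreg cells was at least 1.36-fold. These 4 sites, 20 to 49 bp wide, are the ones within 1 Mb that were called in the averaged comparison with a fitted change past 8-fold. In the whole flank 10 sites passed that limit (1.92%, against 0.905% on the rest of chromosome 18 and 1.01% of all tested sites), 1 higher and 9 lower, against 0.0504% and 0.958% of all tested sites, and only 1 had a mean count of at least 20. A fitted change of a site with so few counts depends on the prior count and is not a measured fold.

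Inside the left-out window, the 68 bp site chr18:46407338-46407406 had 13.4 to 18.4 CPM in the 4 Pggt1b-deficient libraries, against 0.371 to 0.747 CPM in the 4 WT libraries, the largest averaged change among the 3 sites there.

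The other 3 shared sites within 1 Mb were broader, had signal in both genotypes and were all lower in Pggt1b-deficient cells. At chr18:46607281-46607593, 147.0 kb away, Pggt1b-deficient cTreg libraries had 1.79 and 2.21 CPM, against 7.25 and 6.02 CPM in WT cTreg libraries. Pggt1b-deficient eTreg libraries had 7.62 and 12.4 CPM there, against 40.3 and 51.5 CPM in WT eTreg libraries. Within each subset the genotypes did not overlap, and the log2 fold changes were -1.73 ± 0.30 (SE) in cTreg and -2.24 ± 0.25 in eTreg (edgeR adjusted p = 0.000386 and 4.99e-08). The cTreg call was lost with counts thinned to the smallest library (edgeR adjusted p = 0.574).

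chr18:46173003-46173149, 207.0 kb away on the opposite side, also had its highest signal in WT eTreg cells. It had 0.224 and 0.828 CPM in Pggt1b-deficient cTreg libraries, from only 2 and 6 counts, against 2.9 and 2.61 CPM in WT cTreg libraries. In eTreg cells the values were 1.79 and 2.37 CPM in Pggt1b-deficient libraries, from 4 counts each, against 12.9 and 13.0 CPM in WT libraries. All 4 Pggt1b-deficient libraries thus lay below all 4 WT libraries. The changes were of like size, -2.44 ± 0.51 in cTreg and -2.66 ± 0.48 in eTreg (SE; edgeR adjusted p = 0.00456 and 0.000151). The cTreg call was lost without WT cTreg replicate 1, without Pggt1b-deficient cTreg replicate 1 and with thinned counts (edgeR adjusted p up to 0.749).

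The nearest shared site, chr18:46471253-46471896, lay 11.6 kb from the window and had the highest counts of the 5 within 1 Mb. Pggt1b-deficient cTreg libraries had 34.8 and 37.0 CPM, against 52.8 and 54.3 CPM in WT cTreg libraries, and Pggt1b-deficient eTreg libraries had 34.1 and 46.2 CPM, against 70.3 and 71.2 CPM in WT eTreg libraries. The genotypes did not overlap, yet the change was under 2-fold in both subsets, at -0.58 ± 0.11 and -0.84 ± 0.14 (SE; edgeR adjusted p = 0.00183 and 6.81e-05). The cTreg call was lost without WT cTreg replicate 2, without Pggt1b-deficient cTreg replicate 1 and with thinned counts (edgeR adjusted p up to 0.619).

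**Figure D3:**
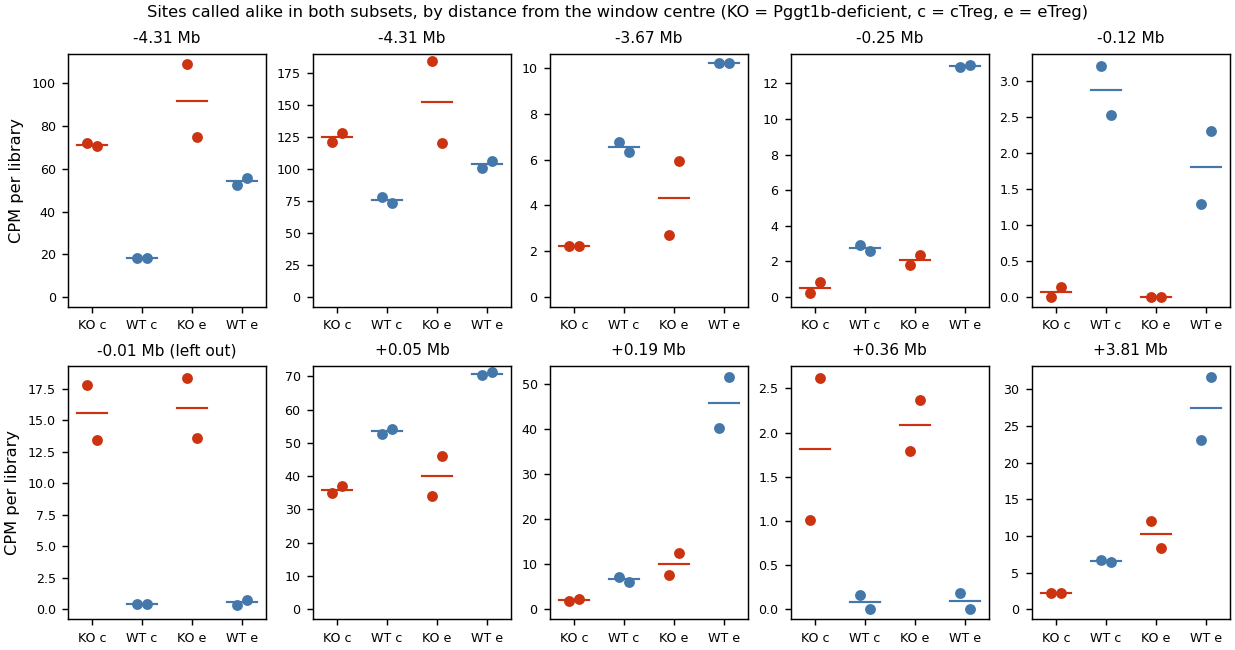
CPM of each library (points) and group means (lines) at the 9 flank sites called alike in both subsets and at the site of the left-out window, labelled by distance from the window centre. Pggt1b-deficient (KO) libraries are red and WT libraries blue; the sites at -0.12 Mb and +0.36 Mb have almost no signal in 1 genotype in both subsets.

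The remaining 4 shared sites lay 3630 to 4270 kb from the window. Among the 9, the smallest adjusted p in cTreg cells was at chr18:42108860-42109176, with 71.9 and 70.4 CPM in Pggt1b-deficient cTreg libraries, against 18.4 and 18.2 CPM in WT cTreg libraries. In eTreg cells it had 109.0 and 74.7 CPM in Pggt1b-deficient libraries, against 52.6 and 55.7 CPM in WT libraries. All 4 Pggt1b-deficient libraries exceeded all 4 WT libraries. The rise was 1.96 ± 0.12 on the log2 scale in cTreg and 0.78 ± 0.13 in eTreg (SE; edgeR adjusted p = 5.44e-14 and 4.6e-05), and the 2 differed (interaction -1.18 ± 0.18, edgeR adjusted p = 9.49e-05). This is the only one of the 9 shared sites with a called interaction. The eTreg call was lost without Pggt1b-deficient eTreg replicate 1 (edgeR adjusted p = 0.0688).

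At chr18:42110425-42111409, the next site along, the 984 bp site had 121.0 and 128.0 CPM in Pggt1b-deficient cTreg libraries, against 77.9 and 73.2 CPM in WT cTreg libraries. It had 184.0 and 120.0 CPM in Pggt1b-deficient eTreg libraries, against 101.0 and 106.0 CPM in WT eTreg libraries. The genotypes did not overlap, and the rises were 0.72 ± 0.10 and 0.57 ± 0.11 on the log2 scale (SE; edgeR adjusted p = 1.54e-05 and 0.000484). Here too the eTreg call was lost without Pggt1b-deficient eTreg replicate 1 (edgeR adjusted p = 0.325), and the cTreg call with thinned counts (0.0792).

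These 2 sites belong to a stretch in which many sites leaned the same way. Between 42.05 and 42.19 Mb, bounds set after the values were seen, 11 sites were tested, of which 7 were higher in Pggt1b-deficient cells in the comparison averaged over subsets and none was lower (edgeR, adjusted p under 0.05), against 5.09% higher and 8.38% lower of all tested sites. The averaged log2 fold change was above 0 at 10 of the 11, with a median of 0.80. Among its other sites, chr18:42108142-42108189 had 1.79 and 1.79 CPM in Pggt1b-deficient cTreg and 5.38 and 3.56 CPM in Pggt1b-deficient eTreg libraries, against 0.317 to 0.475 CPM in the 4 WT libraries. chr18:42139527-42139605 had 2.21 to 5.38 CPM in the 4 Pggt1b-deficient libraries, against 0.834 to 1.58 CPM in the 4 WT libraries. At both sites all Pggt1b-deficient libraries lay above all WT libraries. chr18:42170654-42170882 rose in cTreg cells by 0.82 on the log2 scale (edgeR adjusted p = 0.000477), with 0.21 in eTreg cells (edgeR adjusted p = 0.495).

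The last pair of shared sites were lower in Pggt1b-deficient cells. chr18:42752825-42753032 had 2.24 and 2.21 CPM in Pggt1b-deficient cTreg libraries, against 6.76 and 6.34 CPM in WT cTreg libraries. Its values in eTreg cells were 2.69 and 5.93 CPM in Pggt1b-deficient libraries, against 10.2 CPM in both WT libraries. On the distal side, chr18:50225746-50225941 had 2.24 and 2.21 CPM in Pggt1b-deficient cTreg libraries, against 6.76 and 6.41 CPM in WT cTreg libraries, and 12.1 and 8.3 CPM in Pggt1b-deficient eTreg libraries, against 23.1 and 31.7 CPM in WT eTreg libraries. Within each subset the genotypes did not overlap at either site. The log2 fold changes were -1.55 ± 0.33 and -1.31 ± 0.40 at the first (SE; edgeR adjusted p = 0.00483 and 0.0277) and -1.56 ± 0.30 and -1.40 ± 0.27 at the second (edgeR adjusted p = 0.00179 and 0.000473). At the first site the cTreg call was lost without any 1 of the 4 cTreg libraries (edgeR adjusted p up to 0.4), and the eTreg call under 9 of 19 alternatives (up to 0.314). The eTreg losses came without either WT eTreg library or Pggt1b-deficient eTreg replicate 1, with DESeq2, limma, halved or thinned counts or only the eTreg libraries, and at a threshold of 0.01. At the second the cTreg call was lost without Pggt1b-deficient cTreg replicate 1 and with thinned counts (up to 0.164).

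The 3 largest shared changes on chromosome 18 outside the flank differed in form among themselves. chr18:56691263-56691314, just beyond the distal bound, was low in all WT libraries: it had 3.36 and 1.52 CPM in Pggt1b-deficient cTreg and 3.14 and 1.19 CPM in Pggt1b-deficient eTreg libraries, against 0.0 to 0.483 CPM in the 4 WT libraries. Its cTreg call was lost under 5 of 17 alternatives and its eTreg call under 8 of 16. chr18:62426997-62427168 had 0.673 and 0.0 CPM in Pggt1b-deficient cTreg libraries, against 1.85 and 1.9 CPM in WT cTreg libraries, and 1.79 and 2.37 CPM in Pggt1b-deficient eTreg libraries, against 18.3 and 23.2 CPM in WT eTreg libraries. The edgeR adjusted p was 0.0298 in cTreg, a call lost under 6 of 20 alternatives, and 2.32e-06 in eTreg. chr18:79211000-79211233 had signal in both genotypes in cTreg cells, with 3.14 and 2.76 CPM in Pggt1b-deficient libraries, against 7.25 and 5.23 CPM in WT libraries. It had 1.79 and 1.19 CPM in Pggt1b-deficient eTreg libraries, against 16.7 and 14.9 CPM in WT eTreg libraries, while its cTreg call (edgeR adjusted p = 0.0485) was lost under 13 of 20 alternatives.

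In cTreg cells alone, 21 flank sites differed by genotype, 10 higher and 11 lower in Pggt1b-deficient cells. That is 4.04% of the flank, against 2.11% of the rest of chromosome 18 and 2.21% of all tested sites. For rises the flank had 1.92%, against 0.352% of the rest of chromosome 18 and 0.53% of all tested sites. For falls it had 2.12%, against 1.76% and 1.69%. The percentage called was lower in each farther class: 9 of 64 sites within 1 Mb (14.1%), 8 of 100 at 1 to 5 Mb (8.0%) and 4 of 356 beyond (1.12%). All calls at 1 to 5 Mb lay at 42 to 43 Mb (5 higher, 1 lower) or at 50 to 51 Mb (2 lower). None was called at 44 to 45 or 49 to 50 Mb, with 14 and 13 sites tested. Without both Pggt1b-deficient eTreg libraries, which are not part of this comparison but enter its estimate of spread, 31 flank sites were called, 10 of 65 within 1 Mb (15.4%) and 9 of 361 beyond 5 Mb (2.49%). Leaving out WT cTreg replicate 1 gave 9 calls, WT cTreg replicate 2 gave 11 and Pggt1b-deficient cTreg replicate 1 gave 12. Leaving out a single Pggt1b-deficient eTreg library, replicate 1 or 2, gave 35 or 36. In each of the 8 fits without 1 library the percentage within 1 Mb (5.88% to 16.4%) was above that beyond 5 Mb (0.0% to 3.26%).

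Among cTreg calls that were not shared, chr18:42186011-42186068 had 5.5 and 6.62 CPM in Pggt1b-deficient cTreg libraries, against 0.966 and 0.554 CPM in WT cTreg libraries, a rise of 2.97 ± 0.43 on the log2 scale (SE; edgeR adjusted p = 2.98e-05). It lies at the end of the stretch near 42 Mb described above. chr18:52659896-52659940 had 3.7 and 4.55 CPM in Pggt1b-deficient cTreg libraries, against 0.805 and 0.792 CPM in WT cTreg libraries (2.34 ± 0.49, edgeR adjusted p = 0.00414). That call was lost without either WT cTreg library or Pggt1b-deficient cTreg replicate 2 (edgeR adjusted p up to 0.0977). At chr18:46254261-46254393, 126.0 kb from the window, the fall of -1.66 ± 0.42 (SE; edgeR adjusted p = 0.0234) rested on unequal libraries, with 2.8 and 0.552 CPM in Pggt1b-deficient cTreg, against 5.56 and 5.62 CPM in WT cTreg, and was lost under 5 of 19 alternatives (adjusted p up to 0.87), among them the fits without either WT cTreg library or Pggt1b-deficient cTreg replicate 2. Of the 21 sites called in cTreg, 14 had the same direction in eTreg cells, called or not.

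In eTreg cells 73 flank sites differed by genotype, 27 higher and 46 lower in Pggt1b-deficient cells. The rest of chromosome 18 had 244 of 1990 (12.3%), and all tested sites 11.1%, 4.66% higher and 6.43% lower. These calls had no such relation to distance, with 9 of 64 sites within 1 Mb (14.1%), 18 of 100 at 1 to 5 Mb and 46 of 356 beyond (12.9%). The count was 47 without WT eTreg replicate 2 and 48 without Pggt1b-deficient eTreg replicate 1. With group weights in limma it was 45, of which 21 were higher and 24 lower. The largest fall named by rule was at chr18:41746268-41746405, with no count in either Pggt1b-deficient eTreg library, against 57 and 83 counts in WT eTreg libraries, at least 3.58-fold lower (edgeR adjusted p = 0.000762). chr18:50197853-50197992 and chr18:55452900-55452957 were likewise without counts in both of these libraries, for falls of at least 2.2-fold and at least 2.17-fold (edgeR adjusted p = 0.00848 and 0.0112). Without Pggt1b-deficient eTreg replicate 1 both calls were lost, and the second also without WT eTreg replicate 2, with loess offsets and at a threshold of 0.01 (adjusted p up to 0.219). Of the 3 rises named by rule, chr18:55725528-55725663 had 10.3 and 7.11 CPM in Pggt1b-deficient eTreg libraries, against 2.22 and 1.43 CPM in WT eTreg libraries. chr18:55613557-55613695 had 7.62 and 7.11 CPM, against 2.32 and 2.04 CPM, and chr18:39300304-39300515 had 23.3 and 33.2 CPM, against 10.1 and 10.7 CPM, in the same order of groups. Their log2 fold changes were 2.31 ± 0.42, 1.77 ± 0.43 and 1.41 ± 0.21 (SE; edgeR adjusted p = 0.000201, 0.00537 and 1.21e-05). Of these, the call at chr18:55613557-55613695 was lost without Pggt1b-deficient eTreg replicate 1 (edgeR adjusted p = 0.0665).

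**Figure D4:**
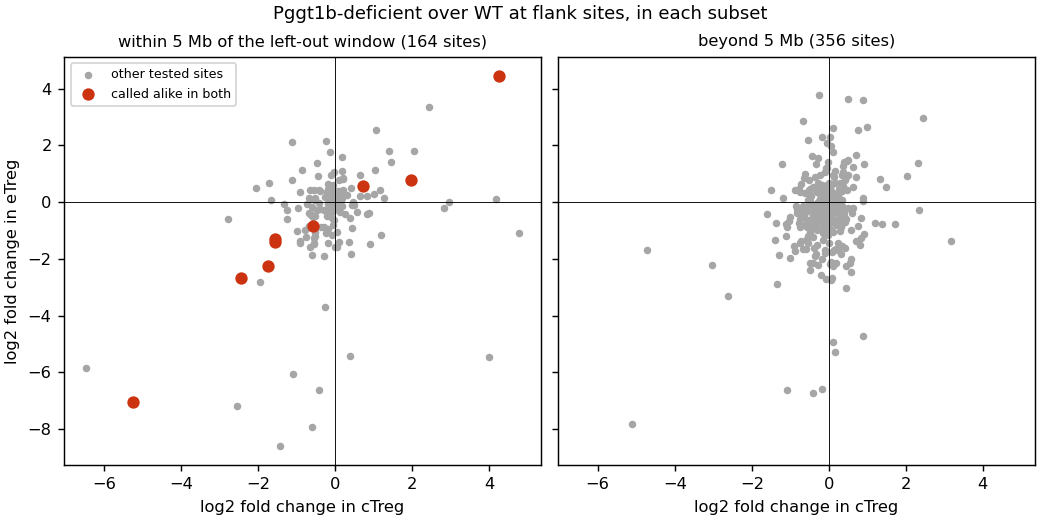
Log2 fold change of Pggt1b-deficient over WT cells in eTreg against that in cTreg for the 164 flank sites within 5 Mb of the left-out window (left) and the 356 beyond (right), 1 point per site. The 9 sites called alike in both subsets (red) all fall in the left panel, in the quadrants of like sign, which their definition requires. Values past about 4 come from sites with few or no counts in at least 1 of the groups compared.

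Averaged over both subsets, which sets 4 Pggt1b-deficient libraries against 4 WT libraries, 86 flank sites were called (16.5%), 31 higher and 55 lower. The rest of chromosome 18 had 15.3% and all tested sites 13.5%, 5.09% higher and 8.38% lower. Within 1 Mb 15 of 64 sites were called (23.4%), at 1 to 5 Mb 20 of 100 and beyond 51 of 356 (14.3%). All 4 Pggt1b-deficient libraries lay on 1 side of all 4 WT libraries at 48 flank sites (9.23%, against 7.39% of the rest of chromosome 18 and 7.75% of all tested sites). Of these 15 were higher and 33 lower, against 2.77% and 4.99% of all tested sites. By distance the separation was seen at 13 of 64 sites (20.3%), 11 of 100 and 24 of 356 (6.74%). Of the 9 shared sites, 7 had this separation. The split of directions differed between the sides of the window. On the side nearer the centromere (lower coordinates), 9 of 314 tested sites were higher and 37 lower. On the distal side 22 of 206 were higher and 18 lower. Many of these rises sat close together, 7 of them at 42 to 43 Mb and 12 at 55 to 56 Mb. The rule also named a fall at chr18:38601355-38601428, with 0.897 to 2.37 CPM in the 4 Pggt1b-deficient libraries, against 3.09 to 4.55 CPM in the 4 WT libraries (-1.37 ± 0.39, SE; edgeR adjusted p = 0.0146). This call was lost under 6 of 17 alternatives (adjusted p up to 0.0868), among them the fits without WT eTreg replicate 2, Pggt1b-deficient cTreg replicate 1 or Pggt1b-deficient eTreg replicate 1. A small rise was named at chr18:50212455-50213288, with 76.0 to 109.0 CPM in the 4 Pggt1b-deficient libraries, against 69.8 to 72.2 CPM in the 4 WT libraries (0.32 ± 0.08, edgeR adjusted p = 0.00411). It was lost with thinned counts and without Pggt1b-deficient cTreg replicate 1 or Pggt1b-deficient eTreg replicate 1 (up to 0.174).

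Over all flank sites the median genotype difference was close to that of the rest of chromosome 18, while the spread was wider when sites with few counts were included. The median log2 fold change was -0.07 in cTreg, -0.19 in eTreg and -0.12 averaged, against -0.10, -0.22 and -0.17 on the rest of chromosome 18 and -0.03, -0.09 and -0.07 over all tested sites. With groups at no count set at their bounds, the eTreg medians were -0.15 for the flank and -0.18 for the rest of chromosome 18, and the others did not move. Over all tested sites of each region, the averaged log2 fold changes had an SD of 1.01 in the flank, against 0.84 on the rest of chromosome 18 and 0.88 genome-wide. Among sites with a mean count of at least 20, the averaged log2 fold changes had an SD of 0.58 over 343 flank sites, against 0.56 over 1349 sites of the rest of chromosome 18. By distance the SD was 0.66, 0.57 and 0.55. The fold changes in cTreg and eTreg, which come from different libraries but from the same sites and depths, correlated at r = 0.342 across all tested flank sites, against 0.202 on the rest of chromosome 18 and 0.221 genome-wide. Among sites with a mean count of at least 20 the order was the opposite, at r = 0.28 in the flank, against 0.361 on the rest of chromosome 18 and 0.374 genome-wide. By distance r was 0.613, 0.0923 and 0.287 over all tested flank sites and 0.397, 0.344 and 0.224 at a mean count of at least 20. These correlations are descriptions, since the sites of a region share libraries and depth. Flank sites had a median width of 115 bp and a median mean count of 33.5, against 117 bp and 37.4 on the rest of chromosome 18.

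The effect of genotype differed between subsets at 15 flank sites, of which 7 had the more positive log2 fold change in eTreg and 8 in cTreg cells (interaction term in edgeR). That is 2.88% of the flank, against 2.01% of the rest of chromosome 18 and 1.51% of all tested sites, 0.957% and 0.555% in the same order of direction. Leaving out single libraries gave 3 to 23 calls, the lowest without WT cTreg replicate 2 and the highest without Pggt1b-deficient eTreg replicate 2, and the count fell to 8, 6, 8 and 9 without WT cTreg replicate 1, WT eTreg replicate 1, WT eTreg replicate 2 and Pggt1b-deficient cTreg replicate 2. Between WT subsets, 163 flank sites differed, 95 higher and 68 lower in WT eTreg than in WT cTreg cells, which is 31.3%, against 31.4% on the rest of chromosome 18 and 28.7% of all tested sites (13.8% higher, 14.9% lower). The count was 94 to 97 without any 1 of the 4 WT libraries. Of the 9 shared sites, 6 were higher in WT eTreg than in WT cTreg cells and 3 did not pass the test, among them the 2 short sites with almost no signal in 1 genotype, at log2 fold changes of -0.64 ± 0.48 and 0.00 ± 0.99 (SE; edgeR adjusted p = 0.344 and 0.998). The WT subset comparison uses the same WT libraries as the genotype comparisons, so these values are given side by side only.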

How the data were processed

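The table deposited by the authors holds unnormalised whole-number counts for each site on build mm9. Per the submitters' processing notes, the tools were MACS2 2.1.1, bedtools, SAMtools, Picard 2.9.4 and Trimmomatic 0.36. For the aligner, peak threshold, pooling and whether reads or fragments were counted, nothing is stated in these sources. Of counts from 1 to 10, 66.1% to 77.4% were even, so many counts come in pairs. The titles gave group and replicate number. Same-numbered libraries did not deviate together (r -0.0164 to 0.057), so no pairing was used.

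All sites were fitted in R 4.3.3 with edgeR 4.0.16 (filterByExpr, TMM, a mean per group over 8 libraries, quasi-likelihood F tests, two-sided, Benjamini-Hochberg adjustment over all tested sites, threshold 0.05). SE is the size of the log2 fold change divided by the square root of its F. With 2 libraries a side, exact permutation gives p = 0.33 at best and was not used. A group at no count was set at a floor of 6 counts over the group (3 pairs); with 1 to 6 counts, the ratio has a 95% Clopper-Pearson interval, every 2 counts being 1 observation. Both cover counting error only. Coordinates are as deposited; a start may be off by 1 base.

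Sites were named by rule: shared calls; the 3 largest changes per direction and comparison with a mean count of at least 20 in the libraries compared and no overlap between the groups compared; the 2 largest interaction effects per direction; 3 shared sites outside the flank; and 1 in the left-out window. The members, lists and rules were chosen with earlier results of these data known. The procedure was tested on simulated data in which only sites with a mean count of at least 20 were changed. Recovery of changes at weaker sites was not tested. Alternatives included DESeq2 1.42.0 and limma 3.58.1. The distance classes (1 and 5 Mb) were drawn as descriptions, and no test compares them.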

Additional observations from a re-analysis of the deposited data

Results flagged for a closer look

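The genotype effect differed between eTreg and cTreg cells at 15 flank sites by the interaction term in edgeR. The WT subset difference enters this term with its sign turned. At chr18:42186011-42186068 it was -2.97 ± 0.63 (SE; edgeR adjusted p = 0.00707), lost under 3 of 17 alternatives: the site had 5.5 and 6.62 CPM in Pggt1b-deficient cTreg libraries, against 0.966 and 0.554 CPM in WT cTreg libraries, and 3.59 and 5.93 CPM in Pggt1b-deficient eTreg libraries, against 3.43 and 5.7 CPM in WT eTreg libraries. At chr18:53948496-53948603 it was -2.48 ± 0.56 (edgeR adjusted p = 0.0121), lost under 6 of 18 alternatives, with a rise in cTreg cells of 1.71 ± 0.35 and a change in eTreg cells of -0.77 ± 0.45 (edgeR adjusted p = 0.285).

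In the other direction, the interaction was 2.5 ± 0.67 at chr18:55710096-55710207 (edgeR adjusted p = 0.0442) and was lost under 10 of 16 alternatives. It was 2.27 ± 0.50 at chr18:55725528-55725663 (edgeR adjusted p = 0.0112) and was lost under 6 of 18 alternatives. At these 2 sites the log2 fold change in eTreg cells was 2.61 ± 0.54 and 2.31 ± 0.42, with 0.10 ± 0.41 and 0.04 ± 0.29 in cTreg cells (SE).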

How the results depend on the processing

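The percentage of shared sites in the flank exceeded that of the rest of chromosome 18 under all 24 alternatives that gave it. These use the same 8 libraries and are not independent of each other. Elsewhere in the genome, 33 of 132 windows of 20 Mb reached the flank percentage. The excess was 0.625 points as reported, and 4.55 and 5.26 points with bounds 5 and 8 Mb narrower. The 5 Mb narrower bounds hold all 9 shared sites, so a larger excess follows from their positions. With thinned counts the excess rests on 1 flank site. It shrank to 0.279 points with bounds 5 Mb wider and 0.303 with counts halved. With loess offsets it was 0.332 points, and at a mean count of at least 20 it was 0.336. The 9 shared sites became 5 with DESeq2, 1 with counts thinned to the smallest library, 40 with an unadjusted p under 0.05 (20 of them beyond 5 Mb), 5 with bounds 8 Mb narrower, and 4 to 11 without single libraries. With counts halved 9 were shared, 6 of them the same and 2 beyond 5 Mb. The 21 cTreg calls became 10 with DESeq2, 3 with thinned counts, 9 with bounds 8 Mb narrower and 9 to 36 without single libraries.

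The 73 eTreg calls became 45 with limma group weights, 33 with thinned counts, 42 at an adjusted p under 0.01, 27, 10 and 117 with bounds 5 Mb narrower, 8 Mb narrower and 5 Mb wider, and 47 to 70 without single libraries. The 86 averaged calls became 26 with thinned counts, 52 at 0.01 and 35, 16 and 138 with those bounds, and stood at 60 to 95 without single libraries. Interaction calls became 2 with thinned counts, 5 at 0.01, 4 and 0 with the narrower bounds, and 3 to 23 without single libraries. WT subset calls became 99 with DESeq2, 36 with thinned counts, 98 at 0.01, 54, 26 and 259 with those bounds, and 94 to 200 without single libraries. Changed bounds test other numbers of sites; the cause of the other changes was not tested.

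With a replicate block 8 shared and 20 cTreg sites were called in place of 9 and 21. The labels do not say whether libraries with the same replicate number share a host. Of 1213 values of named sites under alternatives, 1060 kept their call, 153 lost it and none reversed. The 2 shallow Pggt1b-deficient eTreg libraries limit what can be seen: thinning all libraries to the smallest left 237 flank sites to test.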

Other observations

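Beyond 5 Mb from the window, 2 bins of 1 Mb with at least 20 tested sites, chosen after their values were seen, held more eTreg calls than the 11.1% of all tested sites. A bin with fewer sites, at 40 to 41 Mb, had 3 lower and 0 higher eTreg calls among 8 tested. At 39 to 40 Mb, 13 of 62 tested sites were called in eTreg, 3 higher and 10 lower in Pggt1b-deficient cells, and none was called in cTreg, where 2.21% of all tested sites were (edgeR, adjusted p under 0.05). At 55 to 56 Mb, 15 of 55 sites were called in eTreg, 11 upward and 4 downward in Pggt1b-deficient cells, again with no call in cTreg. At that background, 0 calls among so few sites is not a result. In that bin 24 sites were lower and 6 higher in WT eTreg than in WT cTreg cells, a comparison that shares the WT eTreg libraries. Whether the genotype effect differs between subsets over a whole bin was not tested.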
